A study of Rattus norvegicus with 50 samples.

Results

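The 10 genes described here are Ear11, Pparg, Fabp4, Marco, Itgax, Mrc1, Csf2ra, Csf2rb, Cd163 and Msr1, which are known in resident alveolar macrophages, and they were followed in whole lung among 25208 genes tested on the arrays. They were taken by the gene name that the arrays give to a probe, and each has 1 probe. Ear11 was chosen by its measured level at the end of exposure, which was lower in exposed than in control rats. Its values of that day, and every difference that uses them, are therefore given as a description with no test. The other 9 genes were put on the list for what is known of them, at a time when earlier results of these data were known.

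All 50 rats were F344 males (an inbred strain) that were 12 weeks old when exposed, and all sat in nose-only inhalation tubes for 6 h per day on 5 days per week during 4 weeks. Exposed rats breathed 10 mg/m3 of aerosolised P25, a titanium dioxide (TiO2) nanopowder, and control rats breathed filtered air. Groups of 5 control and 5 exposed rats were taken at the end of exposure (D0) and after 3, 28, 90 or 180 days of recovery (D3, D28, D90 and D180). RNA of the accessory lobe of each rat was hybridised to its own one-colour array. Levels are quantile-normalized log2 signals, and a change is the mean of the exposed rats minus that of the controls of the same day, so that 1 unit is a doubling.

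Alveolar macrophages live on the air side of the alveolus, where they take up inhaled particles and clear surfactant lipid. Granulocyte-macrophage colony-stimulating factor (GM-CSF, gene Csf2), made largely by the alveolar epithelium, binds a receptor formed by the products of Csf2ra and Csf2rb and keeps up PPAR-gamma, the nuclear receptor that sets their lipid-handling programme. Fabp4 is a target of PPAR-gamma, Itgax (CD11c) is an integrin of their surface, Marco, Msr1, Cd163 and Mrc1 are receptors for particles, modified proteins and sugars, and Ear11 is a secreted ribonuclease of the RNase A family whose mouse relatives are markers of these cells. None of the genes is restricted to alveolar macrophages: Fabp4 and Pparg are also known in fat cells and Fabp4 in capillary endothelium, Itgax in dendritic cells, Mrc1 and Cd163 in interstitial macrophages, and ribonucleases of this family in eosinophils. In whole lung, fewer cells of a type and less RNA per cell cannot be told apart.

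The sequences of the array probes are shown first, because they bear on which transcripts the values of Ear11, Itgax and Csf2ra can hold. Each probe has 60 bases, and positions are in the rn4 build that the array files use. The Ear11 probe (chr15_random:598559-598618, plus strand) resembles those of Ear1 (chr15:27292167-27292226, plus strand) and Rnase17 (chr15:27259861-27259920, minus strand), and capitals mark the bases of Ear11 that are identical in both relatives, or the bases of a relative that are identical in Ear11.
Ear11: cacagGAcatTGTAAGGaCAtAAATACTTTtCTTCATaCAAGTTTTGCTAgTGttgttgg
Ear1: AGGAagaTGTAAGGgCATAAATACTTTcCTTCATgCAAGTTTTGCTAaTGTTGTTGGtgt
Rnase17: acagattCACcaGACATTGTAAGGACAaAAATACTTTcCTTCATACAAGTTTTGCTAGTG
Over the aligned stretch, 50 of 57 bases of the Ear1 probe and 49 of 53 of the Rnase17 probe matched the Ear11 probe, and 40 bases of Ear11 were the same in both. A transcript of one relative may thus bind the probe of another, and the values of the 3 genes are not independent of each other on this array. The accession of the Ear11 probe is named Rnase3 in the current RefSeq annotation, with Ear11 as its older name.

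The Itgax probe (chr1:187416145-187416204, plus strand) lies between those of Itgam and Itgad, in the order these integrin genes also have in RefSeq. It is set against the probe of Itgam (CD11b, an integrin of monocytes and neutrophils), which spans an intron at chr1:187385032-187385565 on the plus strand, with capitals for the bases that the pair shares.
Itgax: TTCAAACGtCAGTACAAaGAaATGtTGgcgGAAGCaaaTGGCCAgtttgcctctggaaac
Itgam: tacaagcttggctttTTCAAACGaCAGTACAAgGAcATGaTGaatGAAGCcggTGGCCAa
The pair matched at 34 of 45 aligned bases, fewer than Ear11 and its relatives. The accession of the Itgax probe had no match in RefSeq, where Itgax also stands as an older name of Itgad, so the name used here is that of the array and rests on the position of the probe. Itgad has a probe of its own at chr1:187462990-187463537. The Csf2ra probe has no position in the array files. Its last 30 bases are shown because they end in a run of 6 A, in capitals.
Csf2ra: ctctgacataaatgctgtctctacAAAAAA

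Of the 10 genes, 8 were well above background on all 50 arrays, as the scanner software calls it. Marco was well above background on 11 arrays and Csf2rb on 30, and for these the values are given without folds. The arrays of a group correlated at 0.974 or above over the genes with a value on every array. The 50 arrays lay on 7 slides that each held 4 to 6 groups, so that exposed and control rats of a day could also be compared within a slide. Arrays of D0, D3 and D28 lay on slides 1 to 4 and those of D90 and D180 on slides 5 to 7. The exception was Exposed D3 replicate 1, on slide 5. Where slide differences were removed or fitted, a difference between the early and the late slides rests on that array.

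**Figure D1:**
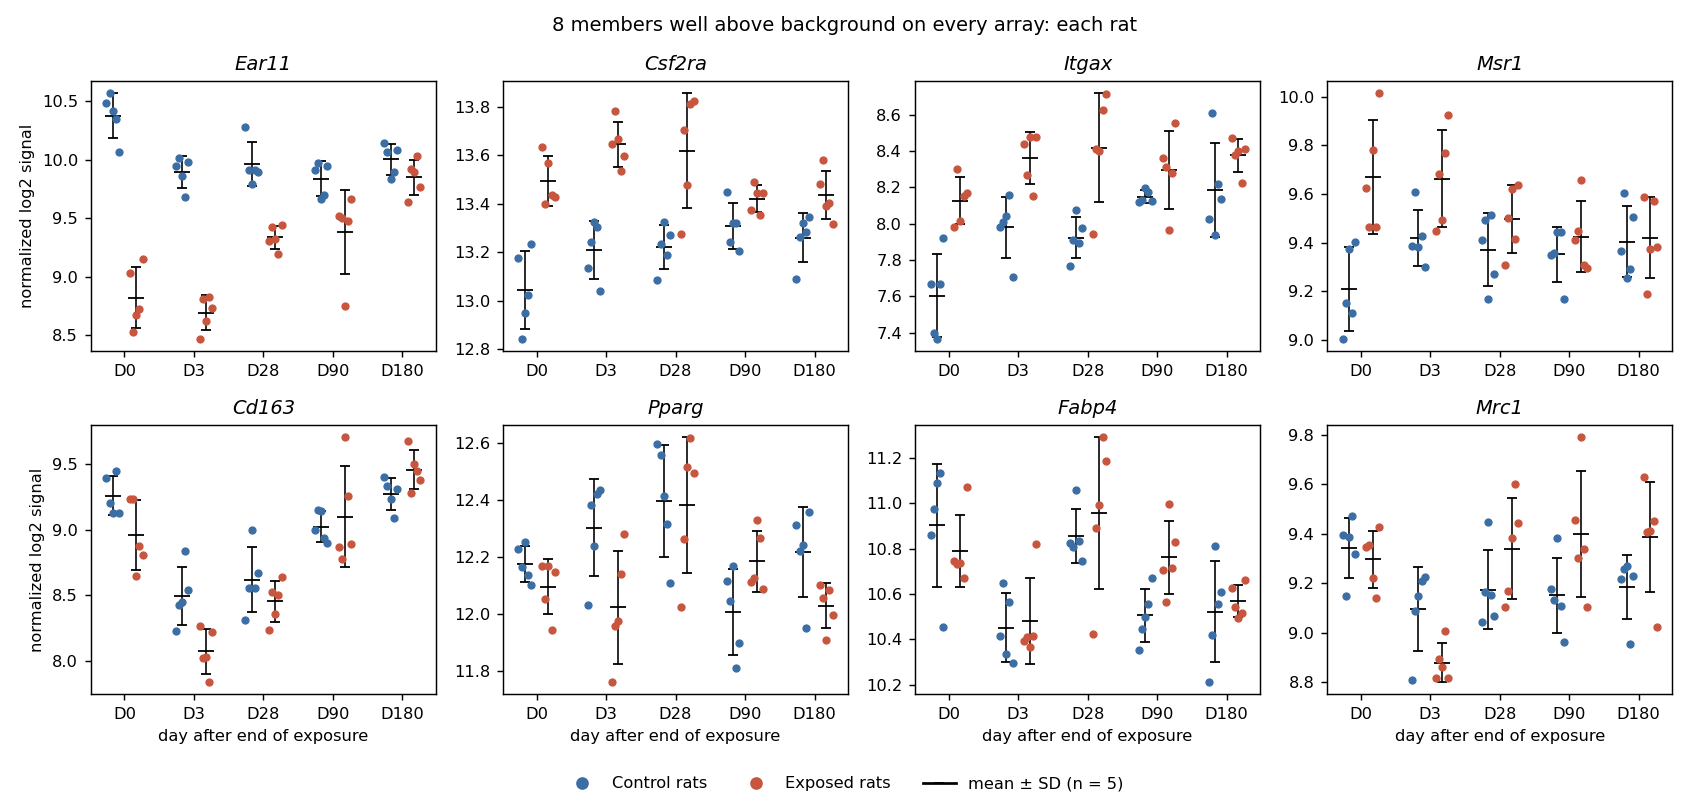
Normalized log2 signal (y axis) of the 8 genes that were well above background on every array, against the day after the end of exposure (x axis), with 1 point per rat and the mean of each group of 5 control or 5 exposed rats. The exposed rats lie below all control rats for Ear11 at D0, D3 and D28, and above all control rats for Csf2ra at D0 and D3 and for Itgax and Msr1 at D0.

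Ear11 stood lowest in exposed rats at D0 and D3, and the distance from the controls shortened on each later day. From D0 to D3 the exposed mean did not rise (8.82 and 8.69), while the control mean was lower at D3 (10.38 and 9.90). At D0 the log2 signal of Ear11 was 10.48, 10.57, 10.41, 10.35 and 10.06 in the 5 control rats. In the 5 exposed rats it was 9.03, 8.53, 8.67, 8.73 and 9.15. The highest exposed rat was below the lowest control rat, and the exposed mean of 8.82 ± 0.26 (SD, n = 5) lay 1.55 (SE 0.12) below the control mean of 10.38 ± 0.19 (SD, n = 5), which is 2.93-fold. These are the values for which the gene was picked, and they were not tested. As a share of the control mean, the exposed rats held 27.9 to 42.8% of the signal, with a median of 31.9%.

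The later days did not enter the choice of Ear11 and could be tested. At D3 the control rats had log2 signals of 9.95, 10.01, 9.86, 9.68 and 9.98, and the exposed rats 8.47, 8.81, 8.62, 8.83 and 8.74. The groups did not overlap, and Ear11 was under-expressed 2.30-fold (log2 change -1.20, SE 0.12, limma adjusted p = 7.75e-10). At D28 the control rats had 10.28, 9.91, 9.79, 9.91 and 9.89 and the exposed rats 9.31, 9.43, 9.33, 9.19 and 9.44, again with no overlap. The D28 change was -0.62 (1.54-fold, adjusted p = 0.00116), just past the fold limit of 1.5 used for a call. It fell short of that limit without Control D28 replicate 1, the highest control rat, where it was -0.54 with adjusted p = 0.00991, and with the normexp background correction, where it was -0.57 with adjusted p = 0.00101.

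By D90 the groups met. The control rats had 9.91, 9.97, 9.66, 9.70 and 9.95 and the exposed rats 9.52, 9.50, 8.75, 9.48 and 9.67, so that 4 of 5 exposed rats were below all controls. The change of -0.45 did not pass the test (adjusted p = 0.0583, 0.0137 to 0.327 over the other settings, and 0.0137 with the slide as a block), and without the lowest rat, Exposed D90 replicate 3, it was -0.30 (adjusted p = 0.395). At D180 the control rats had 10.14, 10.06, 9.83, 9.89 and 10.08 and the exposed rats 9.64, 9.92, 9.89, 10.03 and 9.76. The D180 change was -0.15 (adjusted p = 0.963), with 2 of 5 exposed rats below all controls. The median exposed rat held 44.8% of the control mean at D3, 64.5% at D28, 79.3% by D90 and 92.6% by D180.

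The shortening of the distance was tested as the difference between the exposure changes of 2 days. Against D3, the Ear11 change was higher by 0.75 at D90 (adjusted p = 0.00648) and by 1.05 at D180 (adjusted p = 7.72e-05). At D28 the difference from D3 was 0.58 (adjusted p = 0.0764), which did not pass. Of all genes, 2.07% passed for D28 minus D3, 3.27% for D90 minus D3 and 3.87% for D180 minus D3, with no fold limit. Within single slides, the Ear11 change was below 0 on every slide that held both groups of a day, from -1.89 to -1.24 at D0, -1.26 to -1.06 at D3, -0.60 to -0.46 at D28, -0.65 to -0.20 by D90 and -0.31 to -0.10 by D180. The level in control rats was itself not level over time, being 0.48 lower at D3 and 0.42 lower at D28 than at D0, which is a description because the D0 controls took part in the choice. Between D28 and D3, control rats differed by 0.06 (adjusted p = 1).

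The relatives that share probe sequence with Ear11 were read next, and were named after their values were seen. Ear1 was well above background on 9 of 50 arrays, with log2 signals from 2.66 to 7.76, and no call was made. Rnase17, a little-studied ribonuclease of the same family, was well above background on 43 arrays. Its mean was 6.41 in control and 4.52 in exposed rats at D0, and 6.15 and 4.69 at D3. On both days only 2 of 5 exposed arrays were well above background, so that the size of the difference rests on dim exposed values. The means were 6.19 and 5.46 at D28, then 5.85 and 5.26 at D90 and lastly 5.95 and 5.69 at D180. These are given without a test, since Rnase17 was named for its likeness to Ear11. What share of either signal comes from the other transcript was not tested.

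**Figure D2:**
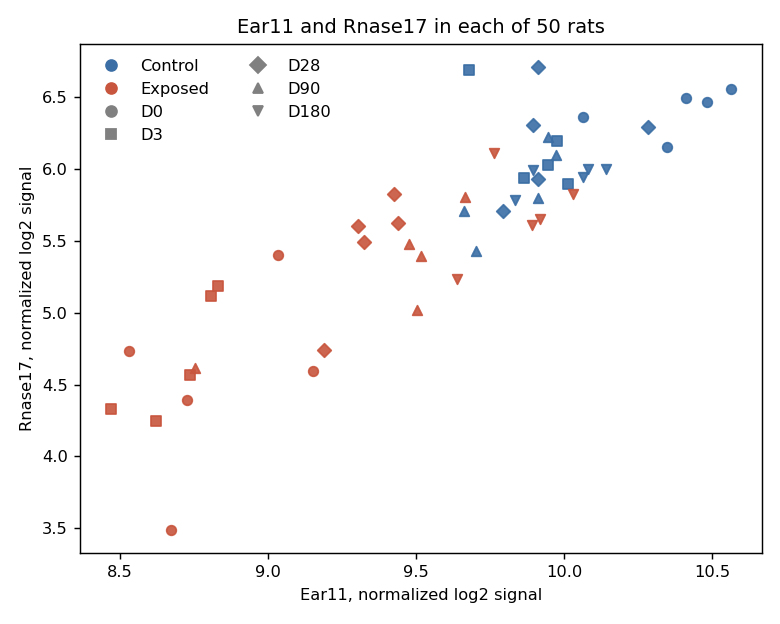
Log2 signal of Rnase17 (y axis) against that of Ear11 (x axis), with 1 point for each of the 50 rats and a colour and marker for the group. Exposed rats at D0 and D3 lie in the lower left corner, with Ear11 at 9.15 or below and Rnase17 at 5.40 or below.

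Likeness to Ear11 was read across the 50 rats over 24997 genes with a value in every rat. Slide differences were removed, and each log2 signal was taken as its difference from the mean of the control rats of that day. The 5 genes most like Ear11 were LOC685321 (r = 0.95), XM_216568 (r = 0.93), Bicd2 (r = 0.93), ENSRNOT00000002664 (r = 0.93) and Rnase17 (r = 0.93). These correlations are descriptions over rats that share treatment groups and slides. With slide differences kept in, only Rnase17 remained among the 5 highest (r = 0.91), Bicd2, an adaptor of the dynein motor, was at 0.85, and LOC685321 and XM_216568 fell to 0.61 and 0.64. The exposure changes of these genes are given without a test, because likeness to Ear11 chose them. They were -0.50, -0.33 and -0.29 at D0, D3 and D28 for Bicd2 and -1.13, -1.42 and -0.99 for ENSRNOT00000002664. For LOC685321 they were -1.04, -1.25 and -0.96, and for XM_216568 -1.17, -1.27 and -1.09. At D180 all 4 were between -0.25 and -0.09.

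Because ribonucleases of this family are known in eosinophils, 7 eosinophil genes were read beside Ear11. Of these, 1 was under-expressed at D0, D3 and D28, namely Alox15 (arachidonate 15-lipoxygenase, also known in resident macrophages), by 1.19 at D0 (adjusted p = 2.3e-09), 1.12 at D3 (adjusted p = 1.8e-08) and 0.51 at D28 (adjusted p = 0.016). Of all genes, 6.58%, 5.53% and 1.44% were under-expressed on these days. The granule protein genes Epx and Prg3 were well above background on 1 and 3 of 50 arrays, the interleukin 5 receptor gene Il5ra on 3 and the eotaxin receptor gene Ccr3 on 24. Prg2 was well above background on 49 arrays and Gata1 on 30, and neither was called on any day. The median change of the 7 genes was 0.04 at D0. Their summed linear signal, which is weighted to the brightest genes, was 387 to 478 in control rats and 239 to 329 in exposed rats at D0. This sum includes Alox15, and how much of the difference Alox15 makes up was not counted. The part of this list in the Ear11 result was not tested.

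In the RNase A family at large, leaving Ear11 aside, 14 genes were tested. At D0, 3 were over-expressed and 4 under-expressed with no fold limit, beside 6.93% and 6.58% of all genes. At D3 1 and 3 were called, beside 4.89% and 5.53% of all genes, and from D28 on none. The under-expressed counts of D0 and D3 include Rnase17, whose place in them is a description only. It was named for its likeness to Ear11, and its probe shares sequence with that of Ear11. Ang and Ang2, the angiogenins, were under-expressed at both D0 (-0.31 each) and D3 (-0.34 and -0.29), and Rnase10 at D0 (-1.03, adjusted p = 0.017). In the other direction, Rnase9 had a mean of 3.64 in control and 5.58 in exposed rats at D0 (adjusted p = 1.5e-06), but 1 of 5 control arrays was well above background, so that the size of the rise rests on dim control values. Rnase6, an antimicrobial ribonuclease of phagocytes, rose by 0.49 at D0 (adjusted p = 0.013). Rnase2 was well above background on 3 exposed and 0 control arrays at D0 and was at least 1.65-fold higher in exposed rats (adjusted p = 0.00091), the bound being set by the dimmest probes well above background on each control array. With the series matrix values the Rnase2 change was 0.26 on the log2 scale (adjusted p = 0.056), which lies under that bound. The family thus moved in both directions.

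Csf2ra encodes the chain that binds GM-CSF, and it was over-expressed in exposed rats through D28. At D0 the control rats had log2 signals of 13.18, 12.84, 12.95, 13.02 and 13.23, and the exposed rats 13.63, 13.40, 13.57, 13.43 and 13.43. Every exposed rat was above every control rat, and the change was 0.45 (SE 0.08, 1.36-fold, adjusted p = 7.43e-05). At D3 the control rats had 13.14, 13.24, 13.33, 13.30 and 13.04 and the exposed rats 13.65, 13.78, 13.67, 13.53 and 13.60, with no overlap and a change of 0.44 (adjusted p = 0.000145). At D28 the change was 0.40 (adjusted p = 0.00169), with 4 of 5 exposed rats above all controls. It was 0.11 at D90 (adjusted p = 1) and 0.17 at D180 (adjusted p = 0.559), with 95% intervals of -0.05 to 0.28 and 0.01 to 0.34. None of these changes reached 1.5-fold.

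Csf2rb, the chain that carries the signal of the receptor, could not be read in the same way. Its log2 signal ran from 2.45 to 9.08 among rats, 3 of its 50 values were missing, and 30 arrays were well above background. At D0 the log2 signals were 3.19, 3.89, 2.45, 2.99 and 9.08 in control rats and 5.20, 4.54, 4.15, 5.41 and 5.46 in exposed rats, so that 4 of 5 controls lay below every exposed rat and 1 control above them. At D3 the 4 measured controls lay between 4.29 and 4.69 and the exposed rats between 4.61 and 7.63. On both days 1 control and 4 exposed arrays were well above background. At D28 this was 4 control and 2 exposed arrays. Marco, a scavenger receptor for uncoated particles, ran from 2.50 to 5.66. Of its 11 arrays well above background, 8 were of D90 or D180, with 4 from control and 4 from exposed rats, and at D28 there were 0.

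**Figure D3:**
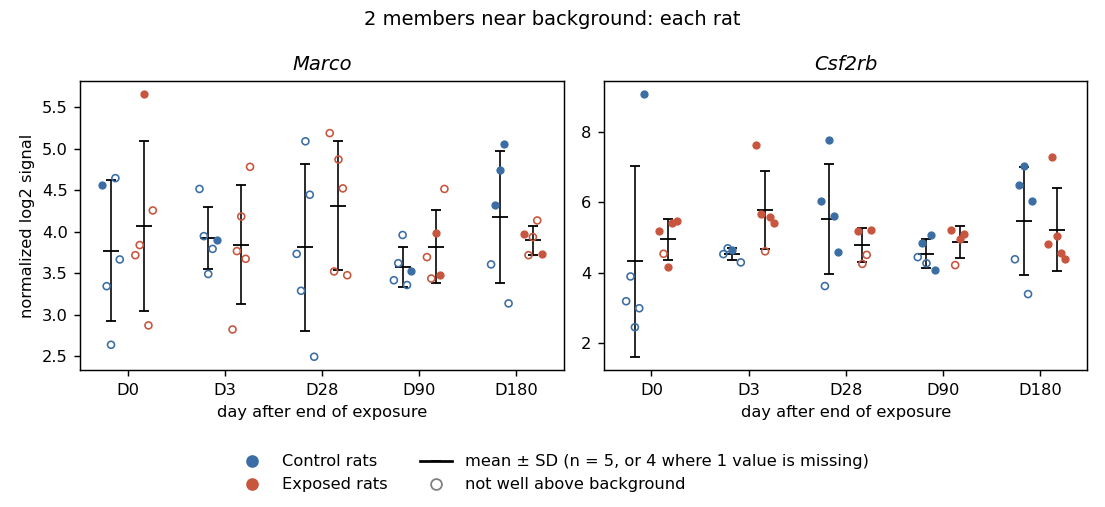
Normalized log2 signal (y axis) of Marco and Csf2rb in each rat, against the day after the end of exposure (x axis), with separate symbols for control and exposed rats and for arrays where the probe was not well above background. Marco stays between 2.50 and 5.66, and Csf2rb spreads from 2.45 to 9.08, with 4 of 5 control rats below all exposed rats at D0 and no such order from D28 on.

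Pparg and its target Fabp4 were not called on any day. Pparg changed by -0.08 at D0 (95% interval -0.28 to 0.12), -0.28 at D3 (-0.48 to -0.08, adjusted p = 0.0669), -0.01 at D28 (-0.22 to 0.19), 0.18 at D90 (-0.02 to 0.38) and -0.19 at D180 (-0.39 to 0.01). For Fabp4, a carrier of fatty acids, the change was -0.11 at D0 (-0.36 to 0.14), 0.03 at D3 (-0.22 to 0.28), 0.10 at D28 (-0.15 to 0.35), 0.26 at D90 (0.01 to 0.51, adjusted p = 0.674) and 0.05 at D180 (-0.20 to 0.30). All 10 intervals stay within 1.5-fold in either direction. The Pparg change at D3 passed with the stricter filter on dim probes (adjusted p = 0.0476) and when any of 3 rats was left out (lowest adjusted p = 0.0235). Of 6 fat cell genes read beside this pair, none passed on any day, where 13.5% of all genes passed at D0 and 0.893% at D180. Plin1 was well above background on 1 of 50 arrays, Lep and Ucp1 on 9 each, Adipoq on 30, Cidec on 49 and Cfd on 50. The lack of calls thus rests in part on genes too dim to read. Of 10 capillary endothelium genes, 5 were under-expressed at D0 and none over-expressed, beside 6.58% and 6.93% of all genes. Among the 5 were Gpihbp1, which anchors lipoprotein lipase (-1.24, adjusted p = 3.8e-11), and the water channel gene Aqp1 (-0.61, adjusted p = 1e-10). The part of these lists in the Fabp4 and Pparg values was not tested.

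The other genes of the GM-CSF and PPAR-gamma axis rose more often than they fell at D0. Of 19 tested, 9 were over-expressed and 1 under-expressed at D0, 4 over-expressed at D3 and 1 at D28, and none were called later. Of all genes, 6.93% were over-expressed and 6.58% under-expressed at D0, 4.89% over-expressed at D3 and 2.44% at D28. The median change of the 19 was 0.27 at D0, beside -0.01 over all genes. Csf2, the ligand itself, rose by 0.76 at D0 (adjusted p = 5.6e-05) and by 0.58 at D3 (adjusted p = 0.0027). Cish, a feedback inhibitor induced by STAT5 signalling, rose by 0.69 at D0 (adjusted p = 0.00083). Angptl4, a secreted lipase inhibitor and PPAR target, rose by 0.86 at D0 (adjusted p = 0.00057) and 1.04 at D3 (adjusted p = 5.7e-05), and Plin2, a lipid droplet coat protein gene, by 0.34 at D0 (adjusted p = 0.0012). Rxra, the partner of PPAR-gamma on DNA, was the 1 gene that fell, by 0.39 at D0 (adjusted p = 0.00094).

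Itgax was over-expressed through D28, with changes close in size to those of Csf2ra. At D0 the control rats had log2 signals of 7.67, 7.40, 7.37, 7.67 and 7.92 and the exposed rats 7.98, 8.30, 8.02, 8.15 and 8.17, with no overlap. The D0 change was 0.52 (SE 0.12, 1.44-fold, adjusted p = 0.00122), and it was smaller, at 0.34, with the normexp background correction (adjusted p = 0.00615). At D3 it was 0.38 (adjusted p = 0.0272) and at D28 0.49 (adjusted p = 0.0083), with 4 of 5 exposed rats above all controls on each day. Leaving out 1 rat at a time moved the D3 adjusted p between 0.0143 and 0.124, and 4 of the 10 rats ended the call when left out. The D28 call ended without Exposed D28 replicate 5 (adjusted p = 0.0528). At D90 the change was 0.15 and at D180 0.19 (adjusted p = 1 and 0.811). Itgam, whose probe is set beside it above, rose by 0.81 at D0, 0.93 at D3 and 0.74 at D28 (adjusted p = 1.5e-06, 1.4e-07 and 4.2e-05), and its change was 0.14 and 0.00 on the last pair of days.

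Msr1, the macrophage scavenger receptor of modified lipoproteins, was over-expressed at D0 alone among the tested days. The control rats had log2 signals of 9.005, 9.15, 9.37, 9.11 and 9.40 and the exposed rats 9.62, 9.47, 9.78, 9.46 and 10.01, so that every exposed rat was above every control rat. The change was 0.46 (SE 0.10, 1.38-fold, adjusted p = 0.00114). At D3 it was 0.24 (adjusted p = 0.141), which passed with the slide as a block (adjusted p = 0.0104), and at D28 0.13 (adjusted p = 0.588). That the D3 and D28 changes missed the threshold does not show that they differ from that of D0, and no difference between days passed for Msr1 in the model used throughout. With the slide as a block, its change was lower than at D0 by 0.42 at D90 (adjusted p = 0.0146) and by 0.49 at D180 (adjusted p = 0.0038), and with 75th percentile scaling by 0.50 at D180 (adjusted p = 0.0365).

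Cd163, the receptor for haemoglobin bound to haptoglobin, was lower in exposed rats at D3. The control rats had 8.23, 8.43, 8.45, 8.83 and 8.54 and the exposed rats 8.26, 8.02, 8.03, 7.84 and 8.22, and 4 of 5 exposed rats were below all controls. The change of -0.42 passed (adjusted p = 0.0348) but its call was not firm, since the adjusted p was 0.12 with the normexp background correction and leaving out any of 5 rats ended it. At D0 the change was -0.30 (adjusted p = 0.155, and 0.0389 with the slide as a block) and at D28 -0.17 (adjusted p = 0.584). Cd163 also differed among control rats, where it was 0.76 lower at D3 than at D0 (adjusted p = 0.000112) and 0.64 lower at D28 than at D0 (adjusted p = 0.00112). Mrc1, the mannose receptor, was not called on any day, with changes of -0.05 at D0, -0.22 at D3 (adjusted p = 0.231), 0.17 at D28, 0.25 by D90 (adjusted p = 0.533) and 0.20 by D180.

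Among 19 further scavenger and pattern recognition receptors, 3 were over-expressed and 2 under-expressed at D0, 4 and 1 at D3 and 1 and 0 at D28. The shares over all genes were 6.93% and 6.58% at D0, 4.89% and 5.53% at D3 and 2.44% and 1.44% at D28. Tlr2, a receptor of bacterial lipoproteins, rose by 1.12 at D0 (adjusted p = 6.5e-07) and 0.61 at D3 (adjusted p = 0.0063). Cd14, its co-receptor, rose by 0.92 at D0 (adjusted p = 1.3e-11) and 0.83 at D3 (adjusted p = 4.3e-10). Scara5, a ferritin receptor known in stromal cells, fell by 0.58 at D0 (adjusted p = 0.00017). The median change of these 19 genes was 0.06 at D0 and 0.00 at D3, near the -0.01 of all genes on both days.

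**Figure D4:**
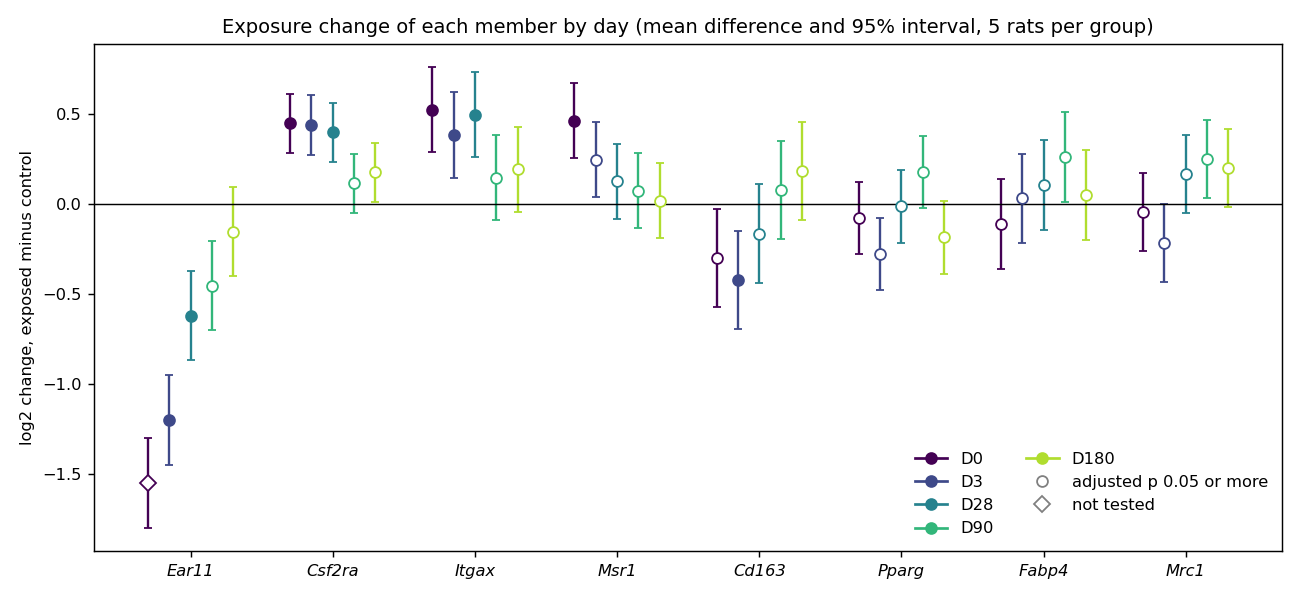
Exposure change (exposed minus control mean, log2, y axis) of the 8 genes well above background on every array (x axis), with 1 marker per day and bars for the 95% interval from the limma fit, 5 rats per group. Ear11 runs from -1.55 at D0 to -0.15 at D180, Csf2ra and Itgax lie above 0 from D0 to D28, and the other genes stay within 0.50 of 0.

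Counted together, the genes did not move as a block. With the 1.5-fold limit, 0 of 9 were called at D0 (Ear11 aside), where 4.28% of all genes were called, 1 of 10 at D3 (3.48% of all genes), 1 of 10 at D28 (1.33%), 0 of 10 at D90 (0.381%) and 0 of 10 at D180 (0.325%). Both calls were Ear11, lower in exposed rats. With no fold limit, 3 of 9 were called at D0 (13.5% of all genes), namely Csf2ra, Itgax and Msr1, all higher in exposed rats. At D3 4 of 10 were called (10.4% of all genes), with Csf2ra and Itgax higher and Ear11 and Cd163 lower. At D28 3 of 10 were called (3.88%), with Csf2ra and Itgax higher and Ear11 lower, and at D90 and D180 0 of 10 (1.05% and 0.893%). At D90 and D180, 3 and 1 of the 10 had an unadjusted limma p under 0.05, beside 1793 and 2028 of all 25208 genes.

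Control and exposed rats did not overlap for 3 of 9 genes at D0 (8.53% of all genes), 2 of 10 at D3 (6.78%), 1 of 10 at D28 (3.80%), 0 of 10 at D90 (3.82%) and 0 of 10 at D180 (4.22%). The median change was 0.30 at D0 over the 9 genes and -0.03, 0.11, 0.16 and 0.03 at D3, D28, D90 and D180 over the 10, beside a median of all genes within 0.01 of 0 on every day. For the difference in exposure change from D3, Ear11 was the only 1 of the 10 genes called. For the difference from D0, 0 of the other 9 genes were called, beside 0.928% of all genes for D3 minus D0, 2.61% for D28, 3.77% for D90 and 3.99% for D180.

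The control rats were compared among themselves because the lungs of the 5 days were taken up to 180 days apart. Of the 9 genes other than Ear11, 2 differed between D0, D3 and D28 in an F test (9.17% of all genes), namely Cd163 (adjusted p = 9.97e-05) and Fabp4 (adjusted p = 0.0177). For D3 minus D0, 3 of these 9 were called (7.36% of all genes), for D28 minus D0 1 (7.08%, Cd163) and for D28 minus D3 none of the 10 (1.49%). Fabp4 was 0.45 lower at D3 than at D0 (adjusted p = 0.0156), and Itgax was 0.38 higher (adjusted p = 0.0394), a call that was lost with 75th percentile scaling (adjusted p = 0.0981). Between D180 and D90, 0 of 10 genes differed, beside 0.0278% of all genes. Of 8 genes read for the phase of the circadian clock, Dbp was 4.51 lower and Arntl 2.95 higher in control rats at D28 than at D0 (adjusted p = 1.7e-17 and 3.85e-16), whereas at D3 Dbp differed from D0 by 0.00 (adjusted p = 0.998). Of the 8 genes, 3 did differ between D3 and D0, namely Per2 (-0.92, adjusted p = 0.00284), Npas2 (0.62, adjusted p = 0.0382) and Tef (-0.34, adjusted p = 0.0427). Between exposed and control rats Dbp differed by -1.95 at D0, -2.49 at D3, then by 3.27, 3.36 and 2.97 on the later 3 days. The part of clock phase in the values of the 10 genes was not tested.

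The genes did not vary together across rats as 1 group. Slide differences were removed, and each log2 signal was again taken as its difference from the mean of the control rats of that day. Itgax and Csf2ra then correlated at r = 0.81 over the 50 rats, Csf2ra and Msr1 at 0.76, Mrc1 and Cd163 at 0.64 and Pparg and Mrc1 at 0.61. Ear11 ran against Csf2ra (r = -0.84), Msr1 (r = -0.81) and Itgax (r = -0.66). The rats share treatment groups, so these values hold the group differences, and the deviations of each rat from its own group mean gave another picture. There Mrc1 and Cd163 stayed at 0.59, Pparg and Mrc1 at 0.57 and Itgax and Csf2ra at 0.52, whereas Csf2ra and Msr1 came to 0.07 and Ear11 and Csf2ra to -0.20. Ear11 and Cd163 were at 0.56 across all rats and at -0.47 within groups. Ear11 and Rnase17 were at 0.50 within groups.

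A wider list of 17 genes known in alveolar macrophages, other than the 10, was read for the same comparisons. At D0 6 were over-expressed and 1 under-expressed with no fold limit (6.93% and 6.58% of all genes), and at D3 5 and 1 (4.89% and 5.53%). At D28 5 were over-expressed and 0 under-expressed (2.44% and 1.44% of all genes), at D90 1 and 0 (0.690% and 0.357%) and at D180 2 and 0 (0.635% and 0.258%). Over D0, D3 and D28, 10 of the 17 rose at least once and 1 fell. No such count over several days was made for all genes, and the shares of single days are not its measure. Atp6v0d2, a subunit of the lysosomal proton pump, rose by 1.21 at D0 (adjusted p = 5.7e-07). Bhlhe41, a transcription factor of alveolar macrophage identity and self-renewal, rose by 1.06 at D0, 0.92 at D3 and 0.80 at D28 (adjusted p = 5.1e-07, 1.2e-05 and 0.00038). Fabp5, the epidermal fatty acid carrier, rose by 1.01 at D0 and 0.74 at D3 (adjusted p = 8.3e-09 and 9.7e-06), unlike Fabp4, and Ctsk, a lysosomal protease, by 0.92 at D0 (adjusted p = 0.00013).

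Siglec1, the sialic acid receptor CD169, rose by 0.94 at D3 (adjusted p = 7.7e-10) and changed by 0.13 at D0 (adjusted p = 0.48). Il1rn, the natural antagonist of interleukin 1, was over-expressed on all 5 days, by 0.79, 0.72, 0.45, 0.30 and 0.39 (adjusted p = 3.9e-10, 6.9e-09, 0.00028, 0.0498 and 0.0069), the D90 call being lost with 75th percentile scaling (adjusted p = 0.111), and it is also known in neutrophils. Bhlhe40 rose by 0.51 at D28 (adjusted p = 0.00068) and by 0.40 at D180 (adjusted p = 0.029, and 0.0767 with 75th percentile scaling), and it is an output of the circadian clock as well. Slc39a2, a zinc transporter, was the gene that fell, by 0.35 at D0 and 0.36 at D3 (adjusted p = 0.032 and 0.028, and 0.0784 and 0.081 with 75th percentile scaling). Ear11 thus fell in the same lungs in which several other genes of this list rose.

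**Figure D5:**
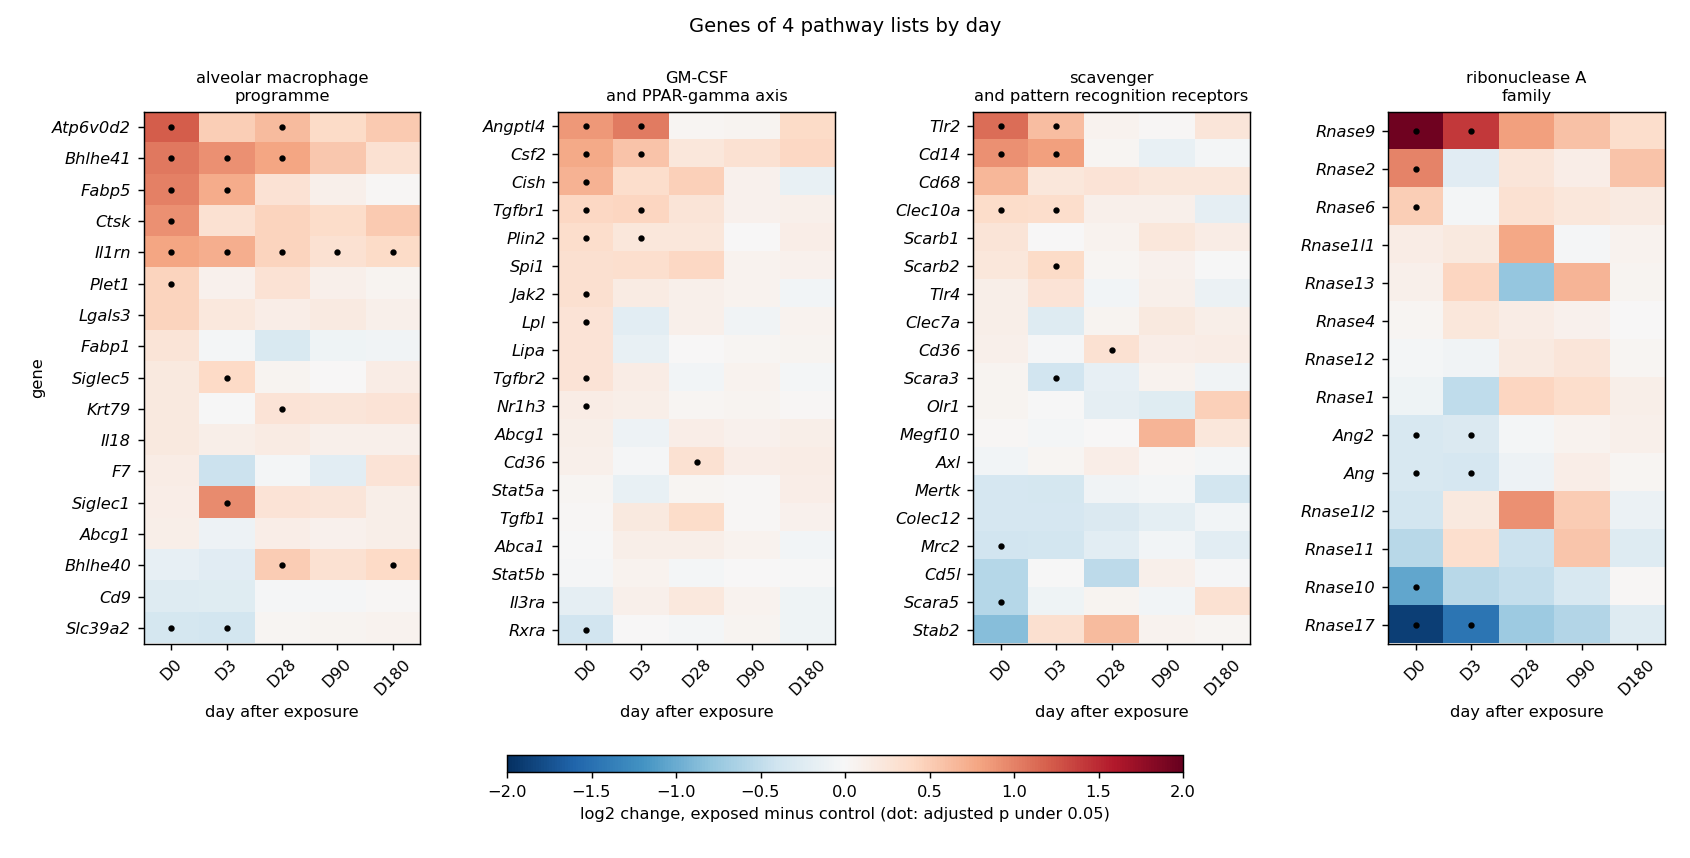
Heat map of the exposure change (exposed minus control mean, log2, colour scale from -2 to 2) of every tested gene (rows) of the 4 lists on the alveolar macrophage programme, the GM-CSF and PPAR-gamma axis, scavenger receptors and the RNase A family, by day (columns), with a mark where the adjusted p is under 0.05. The marked cells crowd at D0 and D3 and thin out by D90 and D180, where Il1rn and Bhlhe40 carry the marks.

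Markers of other cells moved in the same lungs. Of 16 genes of recruited monocytes and interstitial macrophages, 9 were over-expressed and 2 under-expressed at D0, 7 and 2 at D3, 6 and 0 at D28, and Folr2 alone at D90 (0.30, adjusted p = 0.0435, and 0.0731 with 75th percentile scaling). Over all genes, 6.93% were over-expressed and 6.58% under-expressed at D0, 4.89% and 5.53% at D3 and 2.44% and 1.44% at D28, which also stand beside the counts of the cell type lists that follow. Ccr2, the chemokine receptor of monocytes, rose by 1.14 at D0 (adjusted p = 3.8e-11), whereas Lyve1 and F13a1, known in interstitial macrophages, fell by 0.77 and 0.72 (adjusted p = 1.1e-06 and 0.0055). Their summed linear signal was 156400 to 167500 in control and 170600 to 200100 in exposed rats at D0. Of 9 genes shared by all macrophages, 3 were over-expressed at D0 and at D3 and 0 at D28, with Aif1 at 0.47 at D0 (adjusted p = 0.00052) and Cd68 at 0.66 (adjusted p = 0.094). Their summed signal overlapped between the groups, at 357500 to 671800 in control and 397500 to 757000 in exposed rats at D0.

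Of 13 neutrophil genes, 2 were over-expressed at D0, namely S100a8 by 1.37 and S100a9 by 1.69 (adjusted p = 8e-09 and 1.3e-10). The median change of the 13 genes was 0.07 at D0. Their summed signal, which is weighted to the brightest genes, was 33770 to 50020 in control and 90790 to 132900 in exposed rats at D0. At D3, 4 rose and 1 fell, and at D28 S100a9 alone rose, by 0.88. Of 6 dendritic cell genes, which bear on Itgax, 2 rose at D0, 3 at D3 and 1 at D28, with Clec9a at 0.66 at D0 and 0.77 at D3 (adjusted p = 0.00047 and 7.4e-05). The part of these cells in the Csf2ra, Itgax, Msr1 and Cd163 results was not tested.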

How the data were processed

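Each rat's lung RNA (100 ng, Cy3) was hybridised to a one-colour Agilent rat array. Spot intensity in the array files came, per the file headers, from Agilent Feature Extraction 11.0.1.1, with background and spatial trend removed by the authors' software. The series matrix that the authors deposited holds quantile-normalized intensity of the same arrays and served as an alternative. Here control spots and outlier flags were left out, log2 of the deposited processed intensity was averaged over the spots of a probe, and the probe values were quantile-normalized between arrays. Probes above the 95th percentile of negative controls on at least 5 arrays were kept (29549), and the brightest probe stood for a gene. Array number limits the precision, with 5 rats per group. Median array signal was 198 to 473, and 68.7 to 84.5% of spots were well above background.

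Groups came from the sample labels, and whether rats shared a cage or day of killing is not given in the sources used here. One limma model (version 3.58.1, R 4.3.3) with 10 group means gave exposed minus control per day, differences between days and control comparisons, with Benjamini-Hochberg adjustment over all 25208 genes, under 2 call rules: adjusted p under 0.05 with at least 1.5-fold, or with no fold limit. The study's own testing ran limma inside the eUTOPIA tool after a batch correction. The 10 genes, the lists and the rule for named genes were chosen with earlier results of these data known. The text names all 10 genes, the 5 genes most like Ear11, and listed genes that passed or define a list. The model was tested on simulated data for exposed versus control at D0 over 25208 genes, where 4, 21, 36 and 43 of 50 genes changed 1.2-, 1.5-, 2- and 3-fold were recovered with 8 false calls. Of the 10 genes, 9 accessions matched RefSeq. Alternatives were 75th percentile scaling, normexp background correction, the series matrix, slide or replicate blocks, other filters, the mean over probes, the 10 arrays of a day alone and leaving out each rat.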

Additional observations from a re-analysis of the deposited data

Results flagged for a closer look

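Within groups of 5 rats, the distance of the highest or lowest rat from its nearest neighbour was compared with the whole range for the 8 genes well above background, and 6 of 80 groups passed Dixon's 95% critical value, where chance alone gives about 1 in 20. For Ear11 these were Control D28 replicate 1, high at 10.28, and Exposed D90 replicate 3, low at 8.75. For Fabp4 they were Control D28 replicate 3 at 11.06, Exposed D0 replicate 5 at 11.07 and Exposed D3 replicate 5 at 10.82, all high. For Mrc1 it was Control D180 replicate 4, low at 8.95. The Ear11 calls without the first pair are given with its values.

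The exposure change of Ear11 differed between days in a direct test. It was 0.75 higher at D90 than at D3 and 1.05 higher at D180 than at D3 on the log2 scale.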

How the results depend on the processing

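Of the 10 calls of a gene on a day with no fold limit (Ear11 at D0 aside), 9 remained with 75th percentile scaling, normexp or the series matrix, 10 with a slide block or replicate block, and 5 when only the 10 arrays of a day were fitted, where fewer samples set the spread. Replicate numbers did not pair rats (correlations of 25 same-numbered pairs from -0.34 to 0.46, median -0.04), and the replicate block changed 1 result, Ear11 at D90 (-0.45, adjusted p = 0.0486 against 0.0583). Counts of called genes were 3, 4 and 3 at D0, D3 and D28 with no fold limit against 0, 1 and 1 with it, 0 at D28 with normexp, and 0 to 1, 1 to 1 and 0 to 2 without 1 rat. For changes against D0, the slide block called 2 genes at D90 (Csf2ra and Msr1) and 3 at D180 (Csf2ra, Msr1 and Cd163) and 75th percentile scaling 1 at D180 (Msr1), against 0. In the F test among control rats of D0, D3 and D28 the slide block called 4 genes against 2. For these comparisons the share of all genes called was not counted in the alternative settings, so the added calls have no background beside them. Of the 5 genes most like Ear11, 1 remained with slide terms kept. The cause of these shifts was not tested. Values near 0 that were never called changed sign as follows: Csf2ra D3 minus D0 from -0.01 to 0.016 (normexp) and 0.0022 (series matrix), Itgax D28 minus D0 from -0.03 to 0.035 and 0.046, Mrc1 at D0 from -0.05 to 0.011 and 0.0030, Mrc1 in control rats, D180 versus D90, from 0.03 to -0.014 (normexp), Msr1 at D180 from 0.02 to -0.0099 (75th percentile), -0.0049 (slide block) and -0.0091 (series matrix), and Pparg at D28 from -0.01 to 0.022 (slide block). Without 1 rat, Cd163 at D90 ran from -0.076 to 0.156, Fabp4 at D3 from -0.055 to 0.078 and at D180 from -0.031 to 0.119, Msr1 at D180 from -0.025 to 0.075 and Pparg at D28 from -0.087 to 0.075. All other gene values kept their sign in every setting that uses all slides. Called genes over the whole array were 1079, 878 and 335 at D0, D3 and D28, against 582, 478 and 140 with normexp and 662, 539 and 166 with the series matrix. Probes dim on the arrays limit Marco and Csf2rb.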
